A study of Rattus norvegicus with 2 samples.

Results

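The 14-3-3 proteins were followed here through the mRNAs of 6 genes, Ywhab (beta), Ywhae (epsilon), Ywhag (gamma), Ywhah (eta), Ywhaq (theta) and Ywhaz (zeta). They were chosen by name: every probe set whose single gene symbol in the platform's annotation is one of these was taken, which gave 12 probe sets of the 7006 with 1 gene symbol and 6 genes of 4736. The study set mRNA of synaptosomes, nerve endings with adhering postsynaptic membrane that are isolated biochemically, against mRNA of the whole hippocampus, both from Sprague Dawley rats aged 70 postnatal days. Each group was measured on 1 Affymetrix rat array, and the labels name no treatment, genotype or sex and no number of animals. There is therefore no error between samples, each signal below is a single reading, and the groups could not be compared by a test.

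14-3-3 proteins are small acidic adaptors that work as homodimers and heterodimers. Each subunit holds a groove that binds a phosphorylated serine or threonine of a partner protein, called a client, and binding can change the client's activity, its place in the cell or its other contacts. The family is abundant in brain, where it is known for binding tyrosine and tryptophan hydroxylase, the death-promoting protein Bad and several ion channels. The seventh mammalian family member, the epithelial sigma form Sfn, was not analysed here.

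The mRNAs of the 14-3-3 family gave similar signals in synaptosomes and total hippocampus, with every probe set within 2-fold. Of the 12 probe sets, 0 passed 2-fold upward and 0 passed 2-fold downward in synaptosomes. Among all 4370 probe sets past the same filter on dim signals, 19.1% passed 2-fold upward and 14.9% downward, 33.9% in all. Over genes in place of probe sets, 33.4% of 2735 passed it. The median log2 ratio of the 12 probe sets was 0.18, with a range of -0.82 to 0.95, where the median of all 4370 is 0 by construction and their SD was 1.07. All 12 passed the filter. The ratio is the log2 signal in synaptosomes minus that in the total hippocampus, less its median over all filtered probe sets, -0.17.

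Ratios of bright probe sets vary less than those of dim ones, so the members were also set beside bright probe sets alone. The size of negative readings, which a real transcript cannot have, reached 5280.25 at its 95th percentile in the hippocampus and 2912.6 in synaptosomes. The larger of these, 5280.25, is used below as the noise level. Of the 12 probe sets, 9 were above it on both arrays, and 1010 probe sets of the whole array were. Of these 1010, 7.92% passed 2-fold upward and 10.9% downward in synaptosomes, 18.8% in all, against 0 of the 9. The error available here is the disagreement between probe sets for the same gene. Its SD on the log2 ratio was 0.90 over 658 genes past the filter and 0.45 over the 132 genes with several bright probe sets. It leaves out animals, preparations and amplifications.

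**Figure D1:**
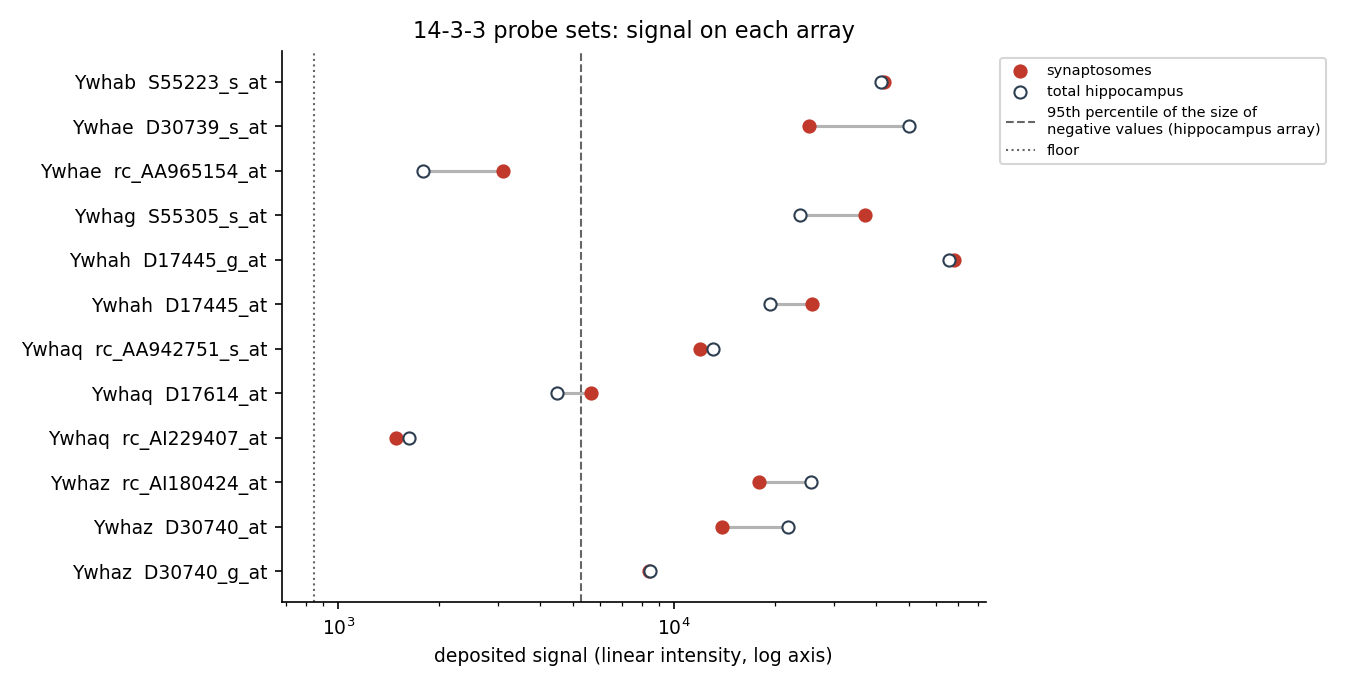
Deposited signal of each 14-3-3 probe set on the synaptosome array (filled) and the total hippocampus array (open), on a log axis, with the floor of 846 (dotted) and the noise level of 5280.25 (dashed). Each point is 1 array; the signals run from 1482 to 67874, and on each row the points lie within 2-fold of each other.

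Ywhah, the eta form, was close to equal with its brighter design and modestly higher in synaptosomes with the other. Probe set D17445_g_at read 67874 in synaptosomes and 65810 in total hippocampus, giving a log2 ratio of 0.21. The companion probe set D17445_at, designed on the same source sequence, read 25656 and 19328, a log2 ratio of 0.58 or 1.49-fold higher in synaptosomes. Both lay on the higher side, and they differed from each other by 0.36, less than the bright SD of 0.45. The size for D17445_g_at depended on the scaling: it was 0.04 without centring, 0.89 after a loess correction and 1.35 after quantile normalization.

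Ywhab, the beta form, had 1 probe set, S55223_s_at, with signals of 42123 in synaptosomes and 41268 in hippocampus. Its log2 ratio of 0.20 was smaller than the bright SD. Ywhag, the gamma form, which is prominent in neurons, also had 1 probe set, S55305_s_at, and it read 37090 and 23702. This was a log2 ratio of 0.82, or 1.76-fold higher in synaptosomes, and the highest among the 9 bright members. It was larger than the bright SD of 0.45 and lay at percentile 87.6 of the ratios of all bright probe sets. The log2 ratio was 0.65 without centring and 1.02, past 2-fold, after the loess correction. With 1 probe set, Ywhag has no second reading to set beside it.

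Ywhae, the epsilon form, was the gene whose probe sets went opposite ways. The bright one, D30739_s_at, had 25221 in synaptosomes against 49936 in hippocampus, a log2 ratio of -0.82 or 1.76-fold lower in synaptosomes. It was the lowest of the 12 and stood at percentile 16.3 of bright probe sets. The dim one, rc_AA965154_at, read 3085 and 1794, both under the noise level of 5280.25, with a log2 ratio of 0.95 that was the highest of the 12. These ratios of one gene were 1.77 apart, or 3.40-fold, which is more than the SD of 0.90 between probe sets of one gene and more than the gap between any other probe sets within the family's genes. The direction for Ywhae therefore depends on the probe set, and only the bright one was above noise.

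Ywhaq, the theta or tau form, was close to equal on the arrays. Probe set rc_AA942751_s_at had 11964 in synaptosomes against 13085 in hippocampus, a log2 ratio of 0.04. Probe set D17614_at read 5646 and 4485, a log2 ratio of 0.50 with the hippocampus reading under the noise level. The third, rc_AI229407_at, read 1482 and 1628, a ratio of 0.03 with both readings under it. The SD of these ratios was 0.27 (n = 3 probe sets on 3 source sequences). The signs of rc_AA942751_s_at and rc_AI229407_at were not stable to the scaling: without centring, which lowers every ratio by 0.17, they were -0.13 and -0.14, and after the loess correction -0.07 and 0.09.

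Ywhaz, the zeta form, was the only member with most of its probe sets on the lower side. Probe set rc_AI180424_at had 17930 in synaptosomes against 25496 in hippocampus, a log2 ratio of -0.34 or 1.26-fold lower. Probe set D30740_at read 13928 and 21821, a log2 ratio of -0.48 or 1.39-fold lower. These designs come from different source sequences and had the same sign. Probe set D30740_g_at, made on the same source sequence as D30740_at, read 8441 and 8448 and had a ratio of 0.17, which was 0.00 without centring. The SD over the probe sets of Ywhaz was 0.34 (n = 3 probe sets), so its mean of -0.22 was smaller than its own spread.

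**Figure D2:**
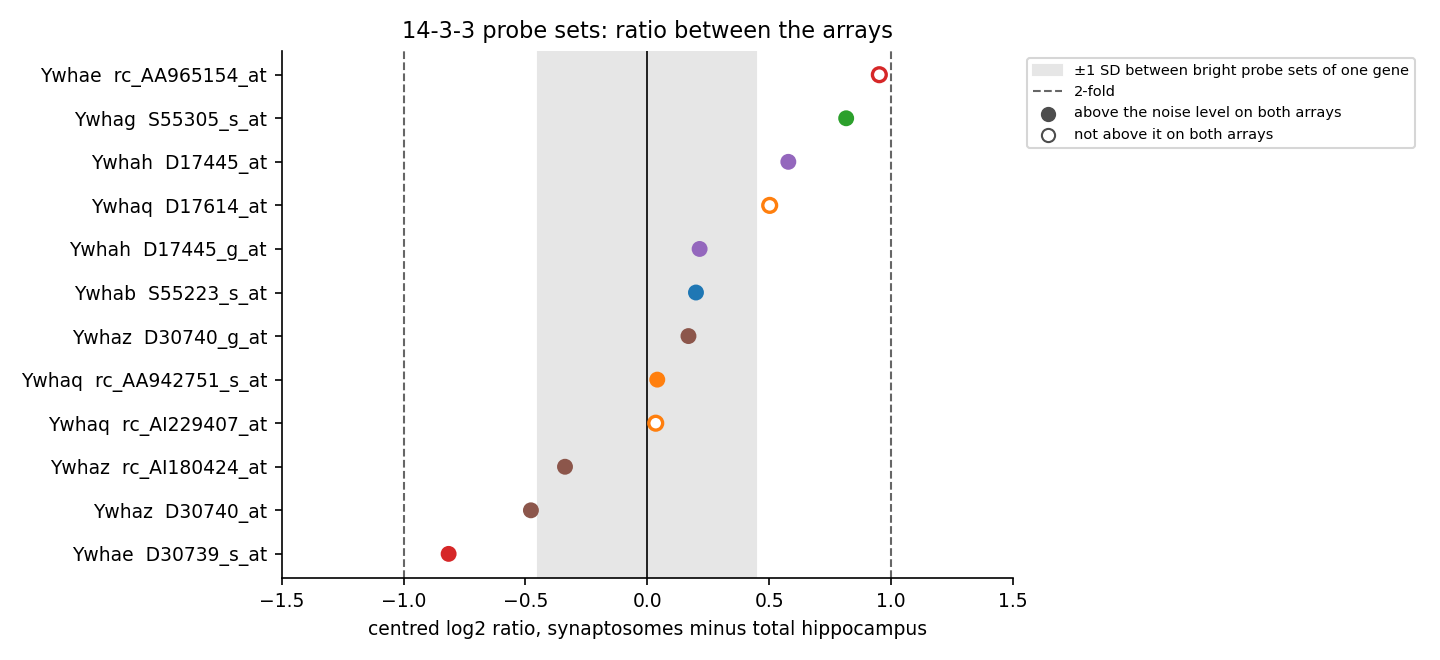
Centred log2 ratio of each 14-3-3 probe set, from highest to lowest, coloured by gene, filled where both signals were above the noise level. The grey band is 1 SD (0.45) between bright probe sets of one gene and the dashed lines mark 2-fold; all 12 points lie between the lines, and the probe sets of Ywhae are at the opposite ends.

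Neighbours in the order of ratios lay close together, and each of the 11 gaps was smaller than 0.45. Small gaps follow largely from sorting 12 values within this range, so they do not show that the members are alike. From the gene means over probe sets, the order was Ywhag at 0.82, Ywhah at 0.40, Ywhab at 0.20, Ywhaq at 0.19, Ywhae at 0.07 and Ywhaz at -0.22. The SD between these gene means was 0.35, while the pooled SD within the 4 genes with several probe sets was 0.58, to which the disagreement within Ywhae, an SD of 1.25, contributed most. With the 9 probe sets above noise alone the order of the SDs turned: it was 0.56 between the means of the 6 genes and 0.32 within the 2 genes, Ywhah and Ywhaz, that had several. This cut drops the dim Ywhae probe set and leaves the other genes a single probe set each. The 0.56 therefore also holds disagreement between probe sets, and the turn does not show that the isoforms differ. With bright probe sets alone, the ends of the order were further apart than the middle: the bright probe set of Ywhag exceeded that of Ywhae by 1.63 on the log2 scale, or 3.10-fold. This difference does not depend on centring. It was 1.53 after the loess correction and 1.64 after quantile normalization, from the same readings. The probe sets were picked as the highest and lowest of the 9, so a wide gap is built in. Further limits are the dim Ywhae probe set described above and the suffix _s_at of both, whose probes can match other transcripts.

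The centring adds 0.17 to every ratio, so the signs of the smallest ratios depend on it. With centring, 9 of the 12 probe sets were above 0 and 3 below. As deposited, without centring, 6 were brighter in synaptosomes and 6 in hippocampus, and for 5 the quotient of the signals lay within 10 percent of 1. The family's median of 0.18 became 0.01 without centring. The bright Ywhae probe set came closest to 2-fold lower in that setting, with a log2 ratio of -0.99. The sign held for Ywhag, Ywhah and Ywhab as higher and for rc_AI180424_at, D30740_at and the bright Ywhae probe set as lower in every scaling tried (no centring, a higher floor, quantile normalization and loess). It also held as higher for the dim Ywhae probe set (0.22 to 0.95) and for Ywhaq D17614_at (0.31 to 0.50). Without centring, Ywhab at 0.03 and Ywhah D17445_g_at at 0.04 were close to equal on the arrays.

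**Figure D3:**
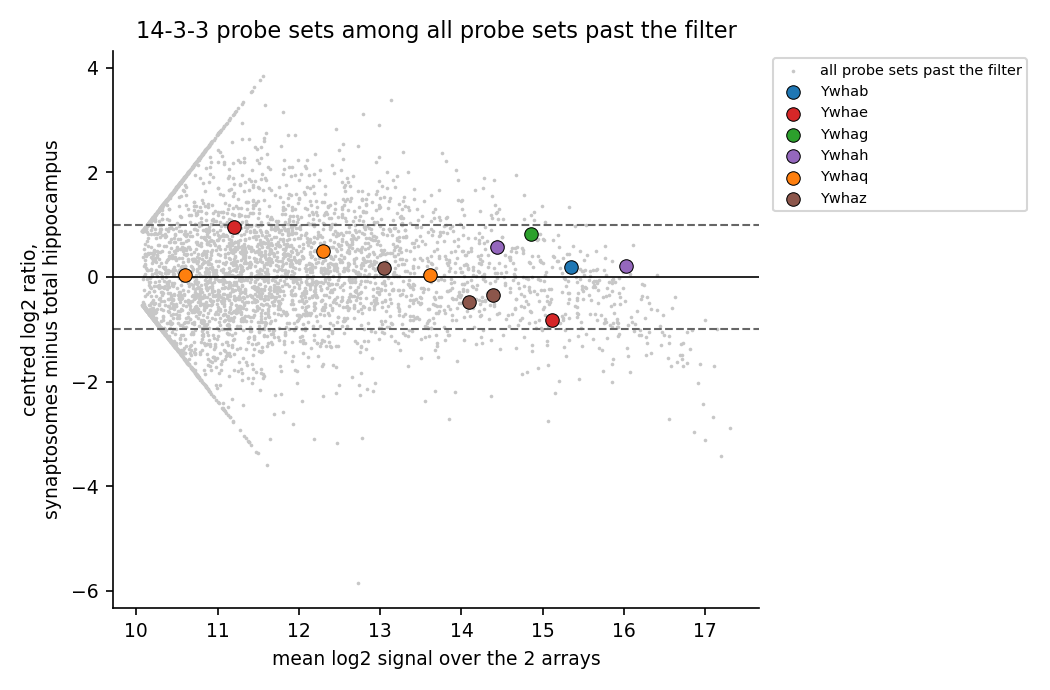
Centred log2 ratio against the mean log2 signal over the 2 arrays for the 4370 filtered probe sets (grey), with the 12 14-3-3 probe sets coloured by gene; dashed lines mark 2-fold. Each point is 1 probe set, and the 14-3-3 points run from the dim to the bright end without crossing 2-fold.

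The array also limits how far the isoforms can be told apart. The family's coding sequences are closely related, and 4 of the 12 probe sets carry the suffix _s_at, which marks probes that can match more than one transcript. These 4 include the only probe sets of Ywhab and Ywhag and the bright ones of Ywhae and Ywhaq. Another 2 carry _g_at and share a source sequence with an unsuffixed probe set, so that the 12 probe sets rest on 10 source sequences. Whether a signal holds a related isoform was not tested. Without suffixed probe sets only Ywhae, Ywhah, Ywhaq and Ywhaz remained, and the median over these 4 genes was 0.54, against 0.12 over 6 genes with the brightest probe set of each. The dim probe set then stands for Ywhae.

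The fraction's makeup was checked with marker genes of each cell type. Beside the counts that follow, 19.1% of all 2735 filtered genes passed 2-fold upward and 14.3% downward. Of 6 neuronal markers past the filter, 0 passed 2-fold upward in synaptosomes and 2 passed it downward, Snap25 and Gap43. The others, Nefl, Syt1, Syn1 and Camk2a, had log2 ratios of 0.59, 0.35, 0.33 and -0.22, with 0.15 for the other Camk2a probe set. The median of the 6 was 0.06, and 3 of them, Snap25, Gap43 and Nefl, were above the noise level on both arrays. The summed signal of the 6 was 67396 in synaptosomes and 150373 in hippocampus, of which Snap25 gave 32782 and 109086. Of 5 oligodendrocyte markers 3 were at least 2-fold lower (Mbp, Mobp and Mog) and 1, Cnp, at least 2-fold higher, with summed signals of 22946 and 41456. Mbp, Mobp and Mog were under the noise level in synaptosomes (1535, 3481 and 2936) and Cnp in hippocampus (3627), so these folds are uncertain. Mag, the only 1 of the 5 above it on both arrays, read 6380 and 7564, a log2 ratio of -0.08. Of 5 astrocyte markers S100b was at least 2-fold higher and Slc1a2 at least 2-fold lower. Another Slc1a2 probe set was 2.36-fold higher, and all Slc1a2 readings were under the noise level. The astrocyte sums were 143342 and 114814, of which S100b gave 61538 and 27401. Of 4 vessel and red cell markers 2 were at least 2-fold lower (Flt1 and Hbb), with sums of 15007 and 46341, of which Hbb gave 6811 and 35126. The other 2, Pecam1 and Slc2a1, had log2 ratios of 0.38 and 0.88 with all readings under the noise level. Flt1 read 2891 in synaptosomes, also under it. Levels of different probe sets are not comparable, so each sum follows its brightest genes and does not measure the amount of a cell type. Only 2 of 5 matched microglial and blood cell markers passed the filter, with sums of 10109 and 7059. The part of these differences in the 14-3-3 ratios was not tested. In bulk RNA of such a fraction, less material from a cell type and less of an mRNA within that material cannot be told apart.

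For the mRNAs of proteins that 14-3-3 proteins bind, a list of 49 known clients was taken, 28 of which matched the symbol of a probe set and 20 passed the filter. Among these 20, 7 passed 2-fold upward, 1 downward and 12 neither, beside 19.1% and 14.3% of all 2735 filtered genes. The 7 include Irs2 and Araf, whose hippocampus readings lay under the floor, so both passed only against the floor. The shares over all genes hold such genes too. The list's median was 0.51, against 0.00 over all filtered genes. Because the list was chosen with earlier results of these data known, its counts and median are descriptive and cannot show an excess. In these counts each gene takes its brightest filtered probe set, and where 1 array lies under the floor of 846 only the signals are given, since a fold against the floor is no guaranteed minimum. Only 4 of the 20 were above the noise level on both arrays, so most of the folds are uncertain.

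The 7 higher clients were Irs2, Tsc2, Camkk2, Prkce, Camkk1, Araf and Cacna1b. Irs2, an adaptor of the insulin receptor, read 4033 and 359 with its brightest probe set, while 2 others were lower in synaptosomes, at 210 and 1411 and at 760 and 1711, all under the noise level. Tsc2, the mTOR inhibitor that Akt phosphorylates, read 5543 and 1727, or 3.61-fold higher. The calcium-calmodulin dependent kinase kinases Camkk2 and Camkk1 were 3.47-fold and 2.04-fold higher. Prkce, the epsilon isoform of protein kinase C, was 2.47-fold higher with signals of 33393 and 15211, and all 4 of its probe sets had log2 ratios of 0.76 or more. The kinase Araf read 1524 and -874, and the N-type calcium channel Cacna1b was 2.02-fold higher. Farthest the other way was the potassium channel Kcnh2 at 2.65-fold lower, with 1729 and 5162, both under the noise level. Next were Th (tyrosine hydroxylase) with signals of -609 and 1611, and the glucocorticoid receptor Nr3c1 at a log2 ratio of -0.55. Bad read 7418 and 5908, a log2 ratio of 0.50.

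Kinases that phosphorylate 14-3-3 binding sites and phosphatases that can release them were described in the same way. Their lists were also chosen with earlier results of these data known. Of 14 kinases matched by symbol 9 passed the filter, and of these 2 passed 2-fold upward and 0 downward, beside 19.1% and 14.3% of all filtered genes, with a median of 0.51. Of the 9, 2 were above the noise level on both arrays. Akt1 read 13524 and 2618 with its brighter design, a log2 ratio of 2.54, with the hippocampus reading under the noise level, and its other probe set, at 1671 and -1568, was under it on both arrays. Prkcb was 2.01-fold higher, with 1.17 and 1.85 on the log2 scale for its other probe sets. Prkacb, Sgk1 and Prkaca had log2 ratios of 0.76, 0.68 and 0.51, and Prkcd, Camk2a and Prkca had -0.26, -0.22 and -0.09. All 6 phosphatase catalytic subunits matched by symbol passed the filter, and 3 passed 2-fold upward and 0 downward, beside the same 19.1% and 14.3%. These were the protein phosphatase 1 subunits Ppp1cc (7073 and 684), Ppp1ca (5146 and -3018) and Ppp1cb (6603 and 1467). Their hippocampus readings were all under the noise level, so the sizes of these differences are uncertain. Those of Ppp1cc and Ppp1ca were also under the floor, so both passed 2-fold only against the floor. Ppp2cb, of protein phosphatase 2A, read 1436 and -345. The calcineurin subunits Ppp3cb and Ppp3ca had log2 ratios of 0.30 and 0.15. Ppp3ca, at 44543 and 45236, was the only one of the 6 above the noise level on both arrays.

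**Figure D4:**
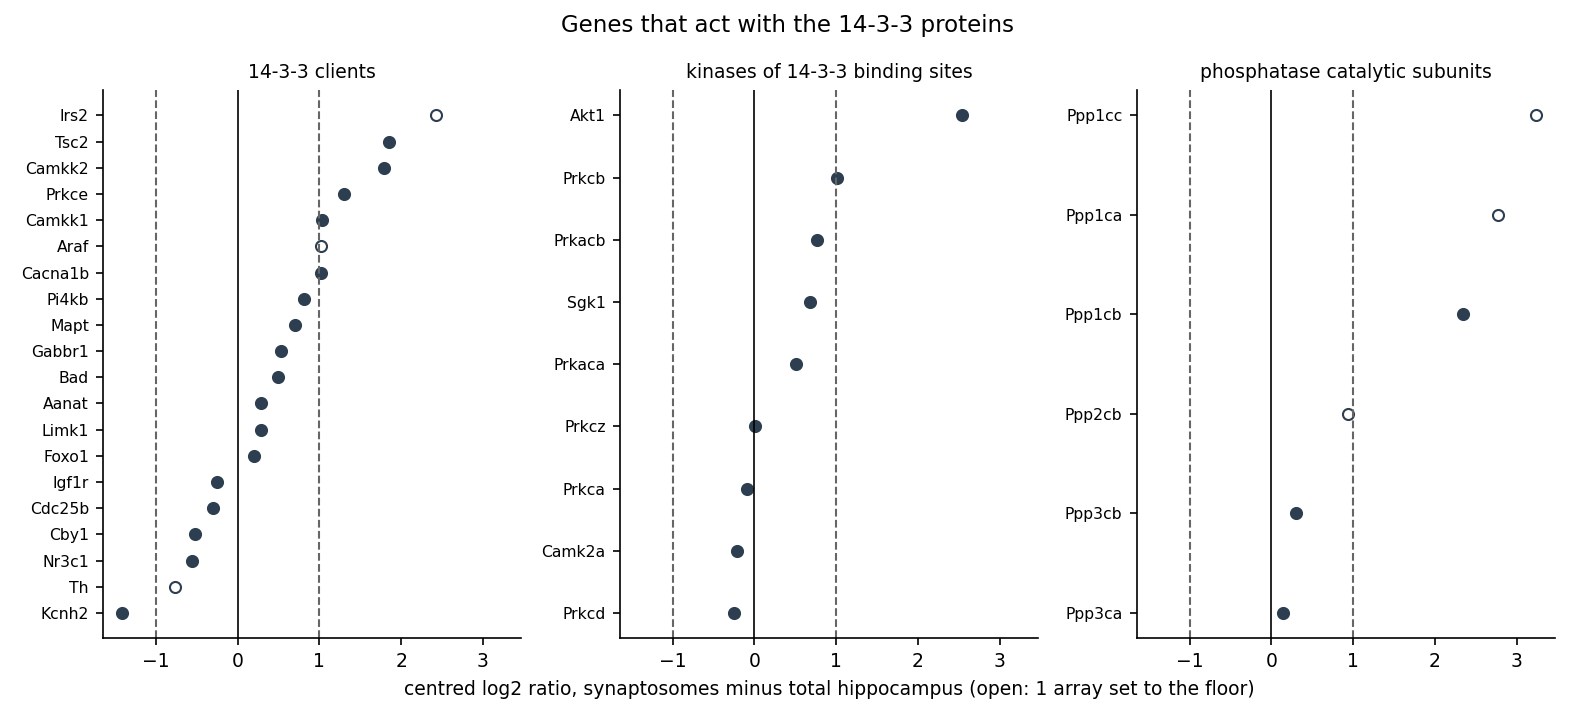
Centred log2 ratio of the filtered genes of the client, kinase and phosphatase lists, 1 point per gene from its brightest filtered probe set; open points have 1 array set to the floor, and dashed lines mark 2-fold. Past 2-fold higher, open points included, lie 7 of 20 clients, 2 of 9 kinases and 3 of 6 phosphatase subunits. Past 2-fold lower lies Kcnh2.

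The ratio of the family is shared by many other genes. Among genes measured above the floor throughout, 3 had the ratios nearest to the 14-3-3 gene median of 0.12, each within 0.01 of it. They were the sodium-calcium exchanger Slc8a2, the methyltransferase Trdmt1 and the growth factor Fgf18. Their signals in synaptosomes and hippocampus were 2827 and 2927, 1317 and 1364, and 1692 and 1750, all under the noise level. These ratios are therefore uncertain. With 2 arrays the measure of likeness is a single ratio per gene, and 107 genes lay within 0.05 of the median.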

How the data were processed

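The authors deposited linear intensity values for 8799 probe sets, 59 of them controls, on 1 synaptosome array and 1 total hippocampus array. The software that made them is not given in the sources used here. Per the labels' protocols, cDNA came from an oligo(dT)-primed SMART amplification and was transcribed into biotin-labelled cRNA. Of the non-control intensities, 25.2% and 31.4% were at or below 0. The trimmed means were 2486 and 2480, so no further scaling was applied. Values under the pooled median, 846, were set to it. Log2 ratios were centred on the median over probe sets whose mean log2 level was at or above the median of all, 10.07. A gene took its filtered probe set of highest mean level. Names came from the platform's annotation, updated through rat RefSeq identifiers (assembly GRCr8). The members and lists were chosen with earlier results of these data known. Genes named are all members, from each list up to 5 genes farthest to the side of its median and 3 farthest opposite, plus Akt1, Bad, Th and Tsc2 for their roles; Araf, Cacna1b and the markers past 2-fold were named after their values were seen. The number of arrays limits the precision. Python 3.11.15, NumPy 2.4.6, pandas 2.3.3, statsmodels 0.14.6 and matplotlib 3.10.9 were used, and the ratio calculation was tested on simulated data.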

Additional observations from a re-analysis of the deposited data

How the results depend on the processing

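Each value was recomputed without centring, with a floor at percentile 75 of the pooled values (2798.5), with quantile normalization, with a loess correction, without the filter, with a filter at percentile 75 of the mean level, with probe sets above the floor on both arrays and, for counts and medians, without suffixed probe sets; gene medians were also taken with the mean over probe sets. The count of 14-3-3 probe sets at least 2-fold lower was 0 in all of these. The count at least 2-fold higher was 1 after quantile normalization, where Ywhah D17445_g_at reached 1.35, and 1 after the loess correction, where Ywhag reached 1.02; the cause was not tested. Without suffixed probe sets the median of the 14-3-3 genes was 0.54 over 4 genes and that of the client list 0.86 over 15. Ywhab and Ywhag then dropped out. Other probe sets stood for Ywhae (rc_AA965154_at, 0.95), Ywhah (D17445_at, 0.58) and Ywhaq (D17614_at, 0.50). Otherwise the median of the 14-3-3 genes ran from -0.05, without centring, to 0.26, and that of the clients from 0.34 to 0.61. A single probe set was taken to have moved where it shifted by more than 0.90, the SD over probe sets for the same gene, and medians where they shifted by more than this SD over the square root of their number. No paired analysis was possible because each group has 1 array. No replicate could be left out for the same reason. Signals under the noise level, which hold 3 of the 12 probe sets on at least 1 array, limit what can be said of the dim Ywhae probe set and of 2 Ywhaq probe sets.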
